A study of Homo sapiens with 14 samples.

Results

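The genes described here encode the proteasome, the protease that degrades ubiquitin-tagged proteins: the subunits of its core particle, of the regulatory cap and of the alternative caps, and the chaperones that assemble them. Members were the genes whose array annotation gave a single symbol beginning with PSMA, PSMB, PSMC, PSMD, PSME, PSMF or PSMG followed by digits, with pseudogenes left out. This gave 45 of 18377 genes. Of these, 43 were among the 11026 genes bright enough to be tested, while PSMA8, a testis form of an alpha subunit, and PSMB11, a thymus form of a catalytic subunit, lay under the level set for testing. PSMC5, PSMD7 and PSMD13 were not analysed here. PSMC3IP and PSME3IP1 share the letters but encode no subunit and were set apart.

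The 14 arrays carried RNA of MiaPaCa2, an established human pancreatic cancer cell line, and gave log2 expression values per gene. Every group shares a transfection with INTERFERin and an siRNA, a short RNA that silences 1 gene: a scrambled control (siCtrl), or one against NUPR1, a chromatin protein induced by stress, or against RELA or RELB, subunits of NF-kB. The labels list 2 siRNAs each for Nupr1 and RelB and do not say which the arrays carry. Starvation was in EBSS, a salt solution without glucose, amino acids or growth factors per the labels. On 6 arrays, the NF-kB set, the cells had siCtrl, siRelA or siRelB and spent 9 h in EBSS or in mock, a condition whose composition the labels do not give. On the other 8, the Nupr1 set, they had siCtrl or siNupr1 and were taken at 0 h or at 3, 6 or 9 h of EBSS. There was 1 array for each such combination. The labels do not say whether arrays are separate cultures. The p-values therefore measure only the spread that an additive model of set, siRNA and condition leaves between these arrays, which may be technical. For the 9 h array of siNupr1, title and source fields disagree on the siRNA, and the titles of the 0 h arrays name the growth medium while their source field names EBSS.

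The proteasome is a barrel of stacked rings, in which alpha subunits form the outer rings that gate entry and beta subunits form the inner rings, some of which carry the proteolytic sites. A cap with a base of ATPases and a lid recognises ubiquitin chains, removes them and threads the substrate into the barrel. In starved cells the proteasome, like autophagy, returns amino acids from existing proteins. Transcription of its subunit genes is known to be raised together by NFE2L1 when proteasome activity falls short, and interferon is known to raise the subunits of a variant, the immunoproteasome.

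Each silenced gene was lower on its own arrays. The log2 difference from siCtrl was -0.87 ± 0.10 for NUPR1 (SE, 4 of 4 pairs), -2.49 ± 0.13 for RELA and -1.32 ± 0.17 for RELB (2 of 2 pairs each). RELB was also lower with siNupr1 (-0.67 ± 0.12, 4 of 4 pairs), and NUPR1 with siRelB (-0.43 ± 0.14, 2 of 2 pairs). With siRelA, NUPR1 was at -0.29 ± 0.14 and RELB at -0.36 ± 0.17. RELA was at -0.04 ± 0.09 with siNupr1 and at 0.02 ± 0.13 with siRelB. Epithelial keratins were high on all arrays (KRT8 at a mean of 12.79 and KRT18 at 13.01), as was the mesenchymal marker VIM at 12.65, while EPCAM and CDH1, defining epithelial markers, lay under the level set for testing at means of 3.56 and 4.53. Of the markers of other cells, 1 of 4 leukocyte, 0 of 4 endothelial, 2 of 5 fibroblast and 1 of 4 acinar genes lay above that level, and PTPRC, which defines leukocytes, was at a mean of 2.65. The array number, and not a read depth, limits the precision here.

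Some proteasome genes were lower in starved cells, in EBSS against mock at a share not far from that of all tested genes. In EBSS against mock at 9 h, 15 of 43 members fell (34.9%) and 0 rose, where 29.3% of all tested genes fell, 22.6% rose and 51.9% passed in either direction (limma, Benjamini-Hochberg adjusted p under 0.05 over all tested genes). Of the members above 0, 2 had an unadjusted p under 0.05. The count of 0 that rose depends on the scaling and on single arrays. With quantile normalization 5 members rose (PSMD3, PSMD4, PSMD8, PSME1 and PSMG2, from 0.17 to 0.27) and 15 fell, beside 29% and 27.9% of all tested genes. With a trend on the genomic span of genes removed 3 rose (PSMB7, PSMF1 and PSMG2) and 17 fell, beside 21.1% and 26.2%. Leaving out 1 array also added a rise: PSMB8 passed at 0.48 without either siRelB array, PSMG2 at 0.33 without either siRelA array, and PSME1 at 0.20 without either 9 h array of the Nupr1 set. The median log2 difference was -0.08 over the members and 0.05 over all tested genes, and 25 of 43 members lay below 0.

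In the Nupr1 set, which has its own arrays, 8 of 43 members fell at 3 h against 0 h (18.6%), 12 at 6 h (27.9%) and 12 at 9 h (27.9%). Of all tested genes, 9.07% fell at 3 h, 15.7% at 6 h and 15.1% at 9 h, and 12.3%, 23.4% and 24.3% passed in either direction. No member rose at these times, where 3.27%, 7.65% and 9.19% of all tested genes did. By the same limma fit 0 members above 0 had an unadjusted p under 0.05 at 3 h and at 6 h, and 1 had at 9 h, PSME4. PSME4 passed at 9 h with quantile normalization, at 0.37 (adjusted p = 0.0217), and with the span trend removed, at 0.33 (0.0302). The median over the members was -0.14, -0.17 and -0.13 at the 3 times, beside -0.03, -0.01 and -0.04 over all tested genes. The 3 times share the 0 h arrays and are no independent repeats of each other.

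**Figure D1:**
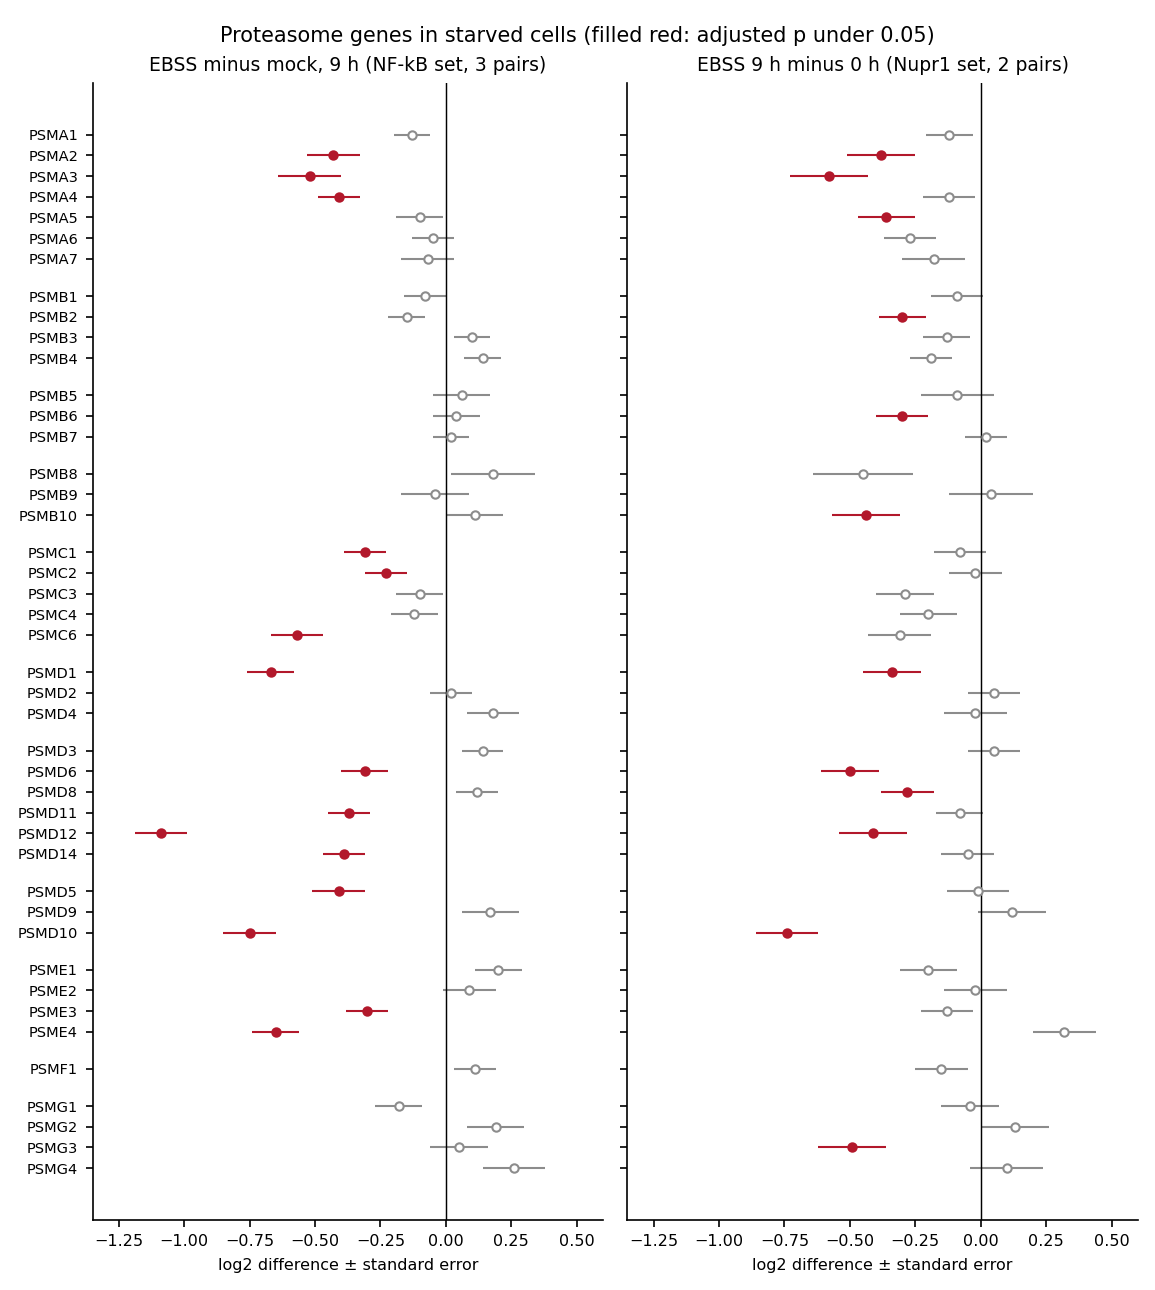
Log2 difference with its standard error (x axis) of each of the 43 tested proteasome genes (y axis, ordered by role from the alpha ring at the top to the core assembly chaperones at the bottom), for EBSS minus mock at 9 h (left, 15 genes past the threshold) and for EBSS at 9 h minus 0 h (right, 12 genes past it). Filled red points passed an adjusted p of 0.05 and all lie left of 0; PSMD12 is lowest on the left at -1.09 and PSMD10 on the right at -0.74.

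The genes PSMA2, PSMA3, PSMD1, PSMD6, PSMD10 and PSMD12 fell in all 4 of these comparisons. These are 6 of 43 members (14%), beside 578 of all tested genes (5.24%). Their number rests on few arrays: it was 1 without the siCtrl array at 0 h (PSMD6), the siCtrl array at 3 h (PSMD1) or the siNupr1 array at 3 h (PSMD10), 2 without the siCtrl array at 9 h (PSMD6 and PSMD10) and 3 without the siNupr1 array at 0 h. With array weights it was 3 (PSMA3, PSMD6 and PSMD10), beside 508 of all tested genes. Another 6 members (14%) passed as falls in EBSS against mock alone (PSMC2, PSMD5, PSMD11, PSMD14, PSME3 and PSME4), beside 15.1% of all tested genes. In the Nupr1 set alone 8 passed (18.6%; PSMA5, PSMB1, PSMB2, PSMB6, PSMB10, PSMC3, PSMD8 and PSMG3), beside 7.29%, and 20 fell in none (46.5%), beside 63.4%. Passing in one set and not in the other is not a difference between the sets, which was tested on its own and is given further on.

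PSMD12 encodes a structural subunit of the lid. Its log2 values in mock were 9.03 with siCtrl, 9.06 with siRelA and 8.69 with siRelB, and in EBSS they were 8.07, 8.00 and 7.43. Every EBSS array lay below every mock array. The difference was -1.09 ± 0.10, a 2.13-fold fall (adjusted p = 5.49e-08, limma, 3 of 3 pairs), the largest fall among the members in that comparison. On the other arrays its values at 0, 3, 6 and 9 h were 9.12, 8.56, 8.47 and 8.51 with siCtrl and 8.78, 8.28, 8.36 and 8.57 with siNupr1. All starved arrays lay below both 0 h arrays, with differences of -0.53 ± 0.13, -0.54 ± 0.13 and -0.41 ± 0.13. At 9 h the call was lost without the siCtrl array at 0 h or at 9 h, where the adjusted p rose to as much as 0.238.

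PSMD10 encodes gankyrin, a chaperone that helps to assemble the base and that is also known as an oncoprotein. It stood at 8.83, 8.80 and 8.62 in mock (siCtrl, siRelA, siRelB) and at 8.27, 7.91 and 7.82 in EBSS. The arrays of the 2 conditions did not overlap, and the difference was -0.75 ± 0.10 (adjusted p = 3.69e-06, limma, 3 of 3 pairs). Over the time course it went from 8.21 at 0 h to 7.55, 7.56 and 7.38 at 3, 6 and 9 h with siCtrl, and from 8.20 to 7.68, 7.61 and 7.55 with siNupr1. Its difference at 9 h against 0 h, -0.74 ± 0.12 (adjusted p = 1.66e-04, limma, 2 of 2 pairs), was the largest fall among the members there. The call held without any 1 of the 14 arrays, of which only those at 0 h and 9 h of the Nupr1 set enter that difference.

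PSMA3 encodes an alpha subunit. In mock it was at 10.01, 9.13 and 9.53 (siCtrl, siRelA, siRelB) and in EBSS at 9.44, 8.79 and 8.87. The conditions overlapped across siRNAs, since the siCtrl array in EBSS lay above the siRelA array in mock, but each pair fell, with a difference of -0.52 ± 0.12 (adjusted p = 0.00123, limma, 3 of 3 pairs). Its values at 0, 3, 6 and 9 h were 9.33, 8.64, 8.10 and 8.39 with siCtrl and 8.84, 8.38, 8.18 and 8.63 with siNupr1. It was lowest at 6 h with both siRNAs, where its difference of -0.94 ± 0.15 (adjusted p = 1.25e-04) was the largest among the members at that time. At 9 h the difference was -0.58 ± 0.15, with -0.94 in the siCtrl pair and -0.21 in the siNupr1 pair, and the call was lost without either siCtrl array (adjusted p up to 0.209).

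**Figure D2:**
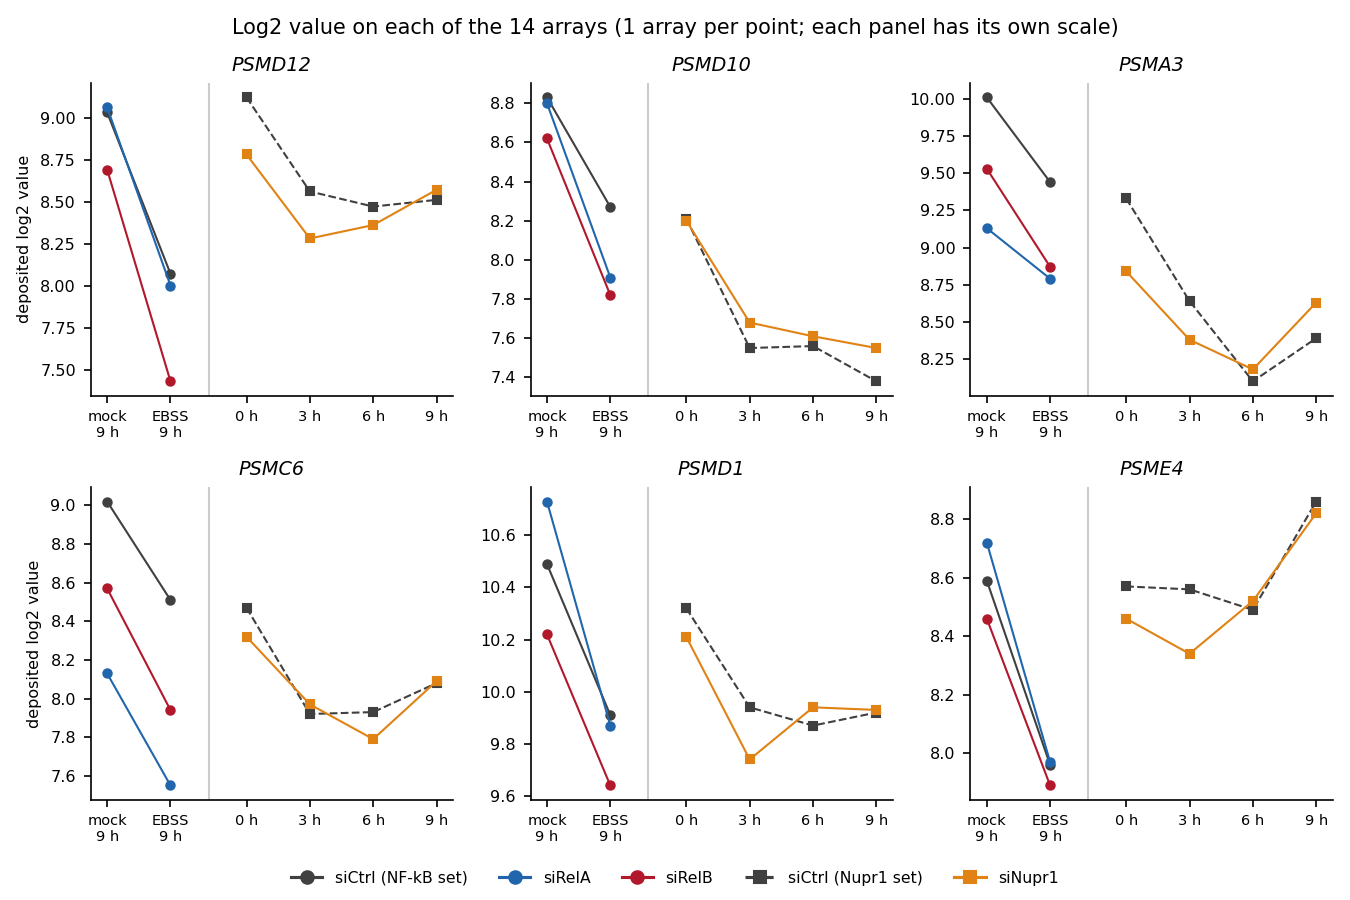
Deposited log2 value (y axis, its own scale in each panel) of 6 proteasome genes on each of the 14 arrays (x axis: mock and EBSS at 9 h for the NF-kB set, then 0, 3, 6 and 9 h for the Nupr1 set); each point is 1 array and lines join arrays of 1 siRNA. PSMD12, PSMD10, PSMA3, PSMC6, PSMD1 and PSME4 fell in every EBSS to mock pair. PSME4, unlike the others, stood at 8.86 and 8.82 at 9 h in the Nupr1 set, above its 0 h arrays at 8.57 and 8.46.

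The bases just before the transcription starts of these 3 genes are shown because the genes fell together in both sets. Each window holds the 250 bases before the start in RefSeq (GRCh38.p14), read 5′ to 3′ on the strand of the gene: chr17:67366578-67366827 on the minus strand for PSMD12, chrX:108091543-108091792 on the minus strand for PSMD10 and chr14:58244593-58244842 on the plus strand for PSMA3. Capitals mark matches, on either strand, to TGACNNNGC, the core of the element that NFE2L1 and related factors bind, or to the CCAAT box.
PSMD12: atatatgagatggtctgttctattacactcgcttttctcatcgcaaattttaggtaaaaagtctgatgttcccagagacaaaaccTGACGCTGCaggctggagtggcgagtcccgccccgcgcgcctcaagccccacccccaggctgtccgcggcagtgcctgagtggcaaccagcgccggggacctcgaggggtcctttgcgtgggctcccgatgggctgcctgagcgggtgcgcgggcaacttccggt
PSMD10: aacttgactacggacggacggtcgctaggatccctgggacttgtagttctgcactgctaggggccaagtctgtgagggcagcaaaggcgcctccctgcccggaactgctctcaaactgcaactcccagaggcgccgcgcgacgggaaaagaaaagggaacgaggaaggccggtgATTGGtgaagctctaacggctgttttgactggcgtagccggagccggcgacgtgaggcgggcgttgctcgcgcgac
PSMA3: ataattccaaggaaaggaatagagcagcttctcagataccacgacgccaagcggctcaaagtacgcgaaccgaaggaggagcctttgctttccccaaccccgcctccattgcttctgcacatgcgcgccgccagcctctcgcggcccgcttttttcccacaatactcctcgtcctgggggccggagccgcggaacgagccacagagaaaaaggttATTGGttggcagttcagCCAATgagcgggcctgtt
PSMD12 holds TGACNNNGC with its first base 165 bases before the start, PSMD10 a CCAAT box on the other strand 76 bases before it, and PSMA3 a CCAAT box on each strand, 35 and 18 bases before it. Windows were found for 39 of 45 members; PSMA7, PSMB1, PSMB6, PSMB7, PSMD4 and PSMG3 had none in the table. TGACNNNGC was in a window of 12 of these 39 genes (30.8%), beside 14.7% of 15843 protein-coding genes and 11.2% of 22199 windows. Among the members that fell in at least 1 starvation comparison 4 of 20 held it, and among the other tested members 8 of 17. CCAAT was in 17 of 39 members (43.6%), beside 40.2% of genes and 32.7% of windows, with 11 of 20 among those that fell and 5 of 17 among the other tested members. Both motifs were counted on both strands, and matches to the 2 motifs may overlap. These are matches of letters and say nothing on binding in these cells.

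Among the alpha ring genes, 3 of 7 tested members fell in EBSS against mock: PSMA3, PSMA2 (-0.43 ± 0.10) and PSMA4 (-0.41 ± 0.08). PSMA2 stood at 9.76, 9.05 and 9.21 in mock (siCtrl, siRelA, siRelB) and at 9.43, 8.82 and 8.49 in EBSS, so that the 2 conditions overlapped between siRNAs while each pair fell. Its call was lost without either siRelB array (adjusted p = 0.0709). PSMA1, PSMA5, PSMA6 and PSMA7 had differences from -0.13 to -0.05 and did not pass. Over the time course PSMA5 passed at all 3 times, with -0.39 ± 0.11 at 3 h, -0.53 ± 0.11 at 6 h and -0.36 ± 0.11 at 9 h, and PSMA4 at 6 h (-0.36 ± 0.10). PSMA5 stood at 9.35, 8.99, 8.80 and 9.13 with siCtrl and at 9.55, 9.12, 9.04 and 9.03 with siNupr1. Both 0 h arrays were above all starved arrays. PSMA4 stood at 11.08, 10.61 and 11.01 in mock and at 10.61, 10.40 and 10.45 in EBSS (siCtrl, siRelA, siRelB), and each pair fell.

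In the beta ring none of the 3 catalytic subunits of the standard core passed in EBSS against mock: PSMB5, the chymotrypsin-like site, was at 0.06 ± 0.11, PSMB6, the caspase-like site, at 0.04 ± 0.09 and PSMB7, the trypsin-like site, at 0.02 ± 0.07. PSMB5 stood at 10.30, 9.63 and 10.21 in mock and at 10.13, 10.11 and 10.08 in EBSS (siCtrl, siRelA, siRelB), and PSMB6 at 10.81, 10.60 and 11.00 in mock and at 10.86, 10.86 and 10.83 in EBSS. In both genes the conditions overlapped. By limma 0 of them had an unadjusted p under 0.05. With the span trend removed PSMB7 passed, at 0.20 (adjusted p = 0.0116). PSMB1, PSMB2, PSMB3 and PSMB4, the structural beta subunits, did not pass either. At 9 h against 0 h PSMB2 (-0.30 ± 0.09, adjusted p = 0.0173) and PSMB6 (-0.30 ± 0.10, adjusted p = 0.0396, limma) fell, and PSMB1 fell at 6 h (-0.28 ± 0.10). PSMB2 stood at 10.75, 10.62, 10.65 and 10.51 with siCtrl and at 10.77, 10.60, 10.53 and 10.42 with siNupr1 (0, 3, 6 and 9 h), and PSMB6 at 10.09, 10.02, 9.91 and 9.86 with siCtrl and at 10.44, 10.13, 10.18 and 10.06 with siNupr1. These calls were narrow: that of PSMB6 was lost without any 1 of the 8 arrays of the Nupr1 set, with an adjusted p of up to 0.275, that of PSMB1 without either siCtrl array of the NF-kB set or any 1 of the 6 arrays at 0, 3 and 6 h (up to 0.31), and that of PSMB2 without either the siNupr1 array at 0 h or at 9 h (up to 0.144). Of the immunoproteasome subunits, PSMB8 and PSMB9 passed in no starvation comparison with all 14 arrays. PSMB8 was at 0.18 ± 0.16 in EBSS against mock, where its siRelB pair alone went down, from 7.32 to 6.89, and without either siRelB array it passed both there and at 9 h against 0 h (-0.45). PSMB10 fell at 9 h (-0.44 ± 0.13, adjusted p = 0.0194), a call lost without the siCtrl array at 9 h or without the siNupr1 array at 0 h or 9 h (up to 0.257). PSMB10 stood at 6.97, 6.85, 7.16 and 6.66 with siCtrl and at 7.20, 6.95, 6.85 and 6.63 with siNupr1, and both 9 h arrays were the lowest of their siRNA.

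Of the 5 base ATPases, which unfold substrates, PSMC6 (-0.57 ± 0.10), PSMC1 (-0.31 ± 0.08) and PSMC2 (-0.23 ± 0.08) fell in EBSS against mock, while PSMC3 (-0.10 ± 0.09) and PSMC4 (-0.12 ± 0.09) did not pass. PSMC6 stood at 9.02, 8.13 and 8.57 in mock and at 8.51, 7.55 and 7.94 in EBSS (siCtrl, siRelA, siRelB). Each pair fell by a similar amount, from -0.51 to -0.62, although the siRNAs set 3 different levels. PSMC6 also fell at 3 h (-0.45 ± 0.12) and at 6 h (-0.54 ± 0.12), and its difference at 9 h was -0.31 ± 0.12 without passing. A dimmer set of PSMC6 probes gave -0.45 for EBSS against mock and -0.26, -0.42 and -0.21 at the 3 times. PSMC1 lost its call in EBSS against mock without either siRelA array (adjusted p = 0.0588) and PSMC2 without either siRelB array (0.29). PSMC1 stood at 10.75, 10.79 and 10.48 in mock and at 10.60, 10.32 and 10.17 in EBSS, and PSMC2 at 11.07, 10.94 and 10.85 in mock and at 10.95, 10.79 and 10.41 in EBSS (siCtrl, siRelA, siRelB). In both genes the arrays of the 2 conditions overlapped across siRNAs.

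PSMD1 and PSMD2 encode the 2 large scaffold subunits of the base, and PSMD4 a ubiquitin receptor. PSMD1 was at 10.49, 10.73 and 10.22 in mock and at 9.91, 9.87 and 9.64 in EBSS (siCtrl, siRelA, siRelB). No EBSS array reached a mock array, and the difference was -0.67 ± 0.09 (adjusted p = 2.64e-06, limma, 3 of 3 pairs). PSMD2, at 0.02 ± 0.08, and PSMD4, at 0.18 ± 0.10, did not pass. In the Nupr1 set PSMD1 fell at 3 h (-0.42 ± 0.11), 6 h (-0.36 ± 0.11) and 9 h (-0.34 ± 0.11), and PSMD2 and PSMD4 passed at none of these times.

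In the lid, 4 of 6 tested members fell in EBSS against mock: PSMD12, PSMD14 (-0.39 ± 0.08), the deubiquitinase that cuts the ubiquitin chain from the substrate, PSMD11 (-0.37 ± 0.08) and PSMD6 (-0.31 ± 0.09). PSMD14 stood at 10.31, 10.32 and 10.04 in mock and at 9.92, 9.90 and 9.68 in EBSS (siCtrl, siRelA, siRelB), and PSMD11 at 10.99, 11.01 and 10.79 in mock and at 10.58, 10.48 and 10.60 in EBSS; each pair of both genes fell. PSMD3 (0.14 ± 0.08) and PSMD8 (0.12 ± 0.08) did not pass. The call of PSMD6 was lost without either siCtrl array or either siRelB array (adjusted p up to 0.0858). In the Nupr1 set PSMD6 was at 9.07, 8.65, 8.67 and 8.66 with siCtrl and at 9.12, 8.50, 8.50 and 8.53 with siNupr1 (0, 3, 6 and 9 h). It was lower by 3 h and then nearly level with each siRNA, with differences of -0.52, -0.51 and -0.50 (SE 0.11 each). PSMD14 and PSMD11 passed at none of these times, with -0.05 ± 0.10 and -0.08 ± 0.09 at 9 h, and PSMD8 fell at 9 h (-0.28 ± 0.10, adjusted p = 0.0448), a call that leaving out any 1 of 11 of the 14 arrays ended (adjusted p up to 0.355).

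Of the other base chaperones, PSMD5 fell in EBSS against mock (-0.41 ± 0.10), standing at 9.24, 9.04 and 8.96 in mock and at 8.83, 8.43 and 8.74 in EBSS (siCtrl, siRelA, siRelB), and PSMD9 was at 0.17 ± 0.11 without passing. The 4 core assembly chaperones, PSMG1 to PSMG4, passed in none of the first 3 comparisons, and PSMG3 fell at 9 h (-0.49 ± 0.13, adjusted p = 0.0101), from 8.67 to 8.36 with siCtrl and from 8.87 to 8.20 with siNupr1. That call was lost without the siNupr1 array at 0 h or at 9 h (up to 0.152). PSMF1, an inhibitor of the core, passed in no starvation comparison at the deposited scaling.

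Of the alternative caps, PSME4, a nuclear activator tied to the degradation of histones, was at 8.59, 8.72 and 8.46 in mock and at 7.96, 7.97 and 7.89 in EBSS (siCtrl, siRelA, siRelB), a difference of -0.65 ± 0.09 (adjusted p = 1.21e-05, limma, 3 of 3 pairs). The 3 EBSS arrays lay close together and below every mock array. In the Nupr1 set its values at 0, 3, 6 and 9 h were 8.57, 8.56, 8.49 and 8.86 with siCtrl and 8.46, 8.34, 8.52 and 8.82 with siNupr1, highest at 9 h with both siRNAs. Its difference at 9 h was 0.32 ± 0.12 (adjusted p = 0.0516). Against 3 h it was the 1 member that passed, with a rise of 0.39 ± 0.12 (adjusted p = 0.0467, limma, 2 of 2 pairs), beside 4.68% of all tested genes that rose, 2.66% that fell and 7.34% in either direction. Leaving out any 1 of 10 of the 14 arrays ended that call (adjusted p up to 0.417), as did 5 of the 6 other alternatives. PSME3, the nuclear relative of PSME1 and PSME2, fell in EBSS against mock (-0.30 ± 0.08), a call lost without either siRelA array (0.0674), and stood at 10.44, 10.41 and 10.50 in mock and at 10.26, 9.93 and 10.26 in EBSS. By contrast PSME1 (0.20 ± 0.09) and PSME2 (0.09 ± 0.10), which form the interferon-inducible cap, did not pass there.

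The 2 starvation responses were compared in the same fit, as the difference at 9 h against 0 h in the Nupr1 set minus that of EBSS against mock in the NF-kB set. For 7 of 43 members (16.3%) they differed, 2 of them upward and 5 downward, beside 24.5% of all tested genes, 16.4% upward and 8.11% downward. PSME4 differed by 0.97 ± 0.15 (adjusted p = 9.69e-05) and PSMD12 by 0.68 ± 0.16 (adjusted p = 0.00452, limma), and both calls held without any 1 array. PSMB10 (-0.55), PSMG3 (-0.53), PSMD8 (-0.41), PSME1 (-0.40) and PSMB4 (-0.33) lay the other way. None of these 5 calls held without the siNupr1 array at 9 h or at 0 h, and 2 members remained in each of those fits; without a siCtrl or siRelA array of the NF-kB set the count was 3, and without a siRelB array 11. The reference differs between the sets (0 h and mock at 9 h), and with it the time in culture, so these cannot be told apart. Over the 43 members the 2 differences had a Pearson correlation of 0.31 and a Spearman correlation of 0.28, as a description over genes that are not independent.

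**Figure D3:**
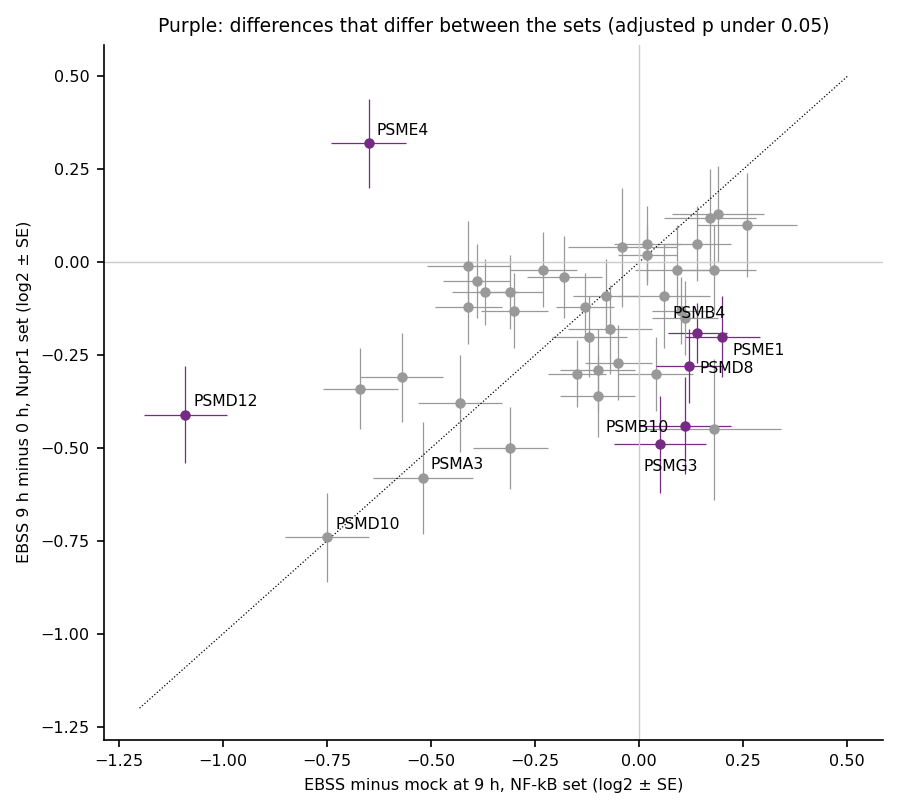
Each point is 1 of the 43 tested proteasome genes, with its log2 difference for EBSS minus mock at 9 h in the NF-kB set (x axis) and for EBSS at 9 h minus 0 h in the Nupr1 set (y axis), bars showing standard errors and the dotted line equal values. PSMD10 and PSMA3 lie near that line, and the 7 purple genes differ between the sets, PSME4 (-0.65 and 0.32) farthest from it.

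The members that fell in EBSS against mock had a median genomic span of 21.9 kb (n = 15), beside 10.2 kb for the 28 other tested members and 24.7 kb for all tested genes. Over the 43 members the difference and the span had a Spearman correlation of -0.38, and over all tested genes -0.42; for 9 h against 0 h these were 0.27 and -0.02. With the trend on span removed from every array, 14 of the 15 members still fell, and PSMD14 did not pass.

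The calls at 3 h rested on few arrays: 1 member remained without the siCtrl array at 0 h, without the siCtrl array at 3 h or without the siNupr1 array at 3 h. At 6 h the 12 calls went to 5 without the siCtrl array at 6 h and to 7 without the siCtrl array at 0 h. At 9 h they went to 3 without the siNupr1 array at 0 h and to 7 without the siCtrl array at 0 h or without the siNupr1 array at 9 h, the array whose title is in doubt. In EBSS against mock the count stayed between 13 and 16.

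The other genes that work with the proteasome were counted by 4 lists. Of 18 tested proteasome-associated factors, 11 fell with EBSS against mock while 3 rose (61.1% and 16.7%), beside 29.3% and 22.6% of all tested genes. UCHL5 (-0.83 ± 0.13) and USP14 (-0.64 ± 0.09), the cap's other deubiquitinases, fell, as did POMP (-0.29 ± 0.10), which matures the core, and ADRM1 (0.37 ± 0.10), a ubiquitin receptor, and ZFAND2A (0.65 ± 0.11), a stress-induced proteasome partner, rose. At 3, 6 and 9 h 2, 2 and 3 of them rose (11.1%, 11.1% and 16.7%) and 2, 3 and 4 fell (11.1%, 16.7% and 22.2%), beside 3.27%, 7.65% and 9.19% of all tested genes that rose and 9.07%, 15.7% and 15.1% that fell. UCHL5 (-0.53, -0.85 and -0.71) and POMP (-0.47, -0.67 and -0.41) fell at all 3 times. ZFAND2A (0.45, 0.68 and 0.64) and AKIRIN2 (0.50, 0.40 and 0.48) rose at all 3 times. Among 12 tested genes around NFE2L1 and the unfoldase VCP there were 2 rises and 4 falls with EBSS against mock, and 3 rises and 1 fall at 9 h against 0 h. The shares in EBSS against mock, 16.7% and 33.3%, were near those of all tested genes, and at 9 h they were 25% and 8.33%, beside 9.19% and 15.1%. NFE2L1 itself was at 0.04 ± 0.12 in EBSS against mock without passing and rose at 9 h by 0.73 ± 0.14 (adjusted p = 8.31e-04, limma, 2 of 2 pairs), while VCP fell in both (-0.38 ± 0.09 and -0.51 ± 0.11). NFE2L2, a related stress factor, fell in EBSS against mock by -0.32 ± 0.09 and rose at 9 h against 0 h by 0.82 ± 0.12. The largest called changes of this list in EBSS against mock were SYVN1 (0.50 ± 0.11), SEL1L (-0.47 ± 0.11) and UBXN1 (0.42 ± 0.10). VCP and NFE2L2 were not among these 3. POMP, ADRM1, NFE2L1, VCP and NFE2L2 in EBSS against mock were named after their values were seen. Among 10 tested genes for ubiquitin and its enzymes 2 fell and 1 rose with EBSS against mock, with shares of 20% and 10%. UBA6, a ubiquitin-activating enzyme, fell there by -1.37 ± 0.11 and was at 0.32 ± 0.14 at 9 h against 0 h without passing, where USP5, a deubiquitinase, was the 1 gene of the list that fell (-0.31 ± 0.11). Of 6 tested interferon and MHC class I genes, 1 rose and 1 fell with EBSS (16.7% each), and 1 fell at 9 h.

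Silencing NUPR1 raised 7 of 43 members and lowered 0 (16.3%), beside 9.86% of all tested genes that rose, 8.58% that fell and 18.4% in either direction; by the same limma fit 1 member below 0 had an unadjusted p under 0.05. With quantile normalization 5 members rose and 1, PSMA1, fell, beside 9.25% and 9.05% of all tested genes. With array weights 11 rose and 1, PSMD12, fell, beside 16.8% and 12.9%. PSMC3, a base ATPase, was at 9.75, 9.69, 9.42 and 9.67 with siCtrl and at 10.34, 10.01, 9.98 and 9.84 with siNupr1 (0, 3, 6 and 9 h). Every siNupr1 array lay above every siCtrl array, and the difference was 0.41 ± 0.08 (adjusted p = 0.00143, limma, 4 of 4 pairs). PSME1 was at 8.81, 8.67, 8.74 and 8.70 with siCtrl and at 9.24, 9.08, 9.10 and 8.95 with siNupr1, again without overlap (0.36 ± 0.08, adjusted p = 0.00264, limma). PSMC4 (0.34 ± 0.08), PSMD2 (0.28 ± 0.07), PSMB1 (0.26 ± 0.07), PSMB6 (0.23 ± 0.07) and PSMD8 (0.22 ± 0.07) rose in 4 of 4 pairs as well. PSMC4 stood at 9.88, 9.81, 9.74 and 9.87 with siCtrl and at 10.34, 10.18, 10.18 and 9.95 with siNupr1 (0, 3, 6 and 9 h). PSMD2 stood at 10.09, 10.19, 10.07 and 10.29 with siCtrl and at 10.53, 10.48, 10.34 and 10.42 with siNupr1. In both genes the siNupr1 array was the higher at every time. PSMB1 stood at 10.17, 10.06, 9.93 and 10.20 with siCtrl and at 10.54, 10.29, 10.23 and 10.33 with siNupr1. PSMD8 stood at 10.10, 9.95, 9.95 and 9.95 with siCtrl and at 10.40, 10.23, 10.21 and 9.97 with siNupr1, where the 9 h arrays were nearly level.

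The pair at 9 h, which holds the array with the doubtful title, gave 0.17 for PSMC3, 0.25 for PSME1, 0.09 for PSMC4 and 0.02 for PSMD8, beside 0.59, 0.43, 0.46 and 0.30 at 0 h. Without that array 8 members rose. A linear change of that difference with time in EBSS passed for 0 of 43 members and for 0 of all 11026 genes (limma). With the Nupr1 set fitted alone it passed for 1 member, PSMA3, and for 7.63% of all tested genes. In the fit of all 14 arrays 3 members had an unadjusted p under 0.05. PSMA3 had the smallest of them, with pairs of -0.49, -0.26, 0.08 and 0.24 at 0, 3, 6 and 9 h (adjusted p = 0.114). The count of 7 went to 3 without the siCtrl or the siNupr1 array at 0 h or at 3 h, and to 4 without either array at 6 h; PSMC3, PSMC4 and PSME1 kept their calls in each of the 14 fits.

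Silencing RELA lowered 9 members and raised 1 (10 of 43, 23.3%), beside 11.4% of all tested genes that fell, 10.1% that rose and 21.5% in either direction. Silencing RELB lowered 8 and raised 0 (18.6%), beside 8.55%, 7.58% and 16.1%; by the limma fit 1 member above 0 had an unadjusted p under 0.05, PSMC3, which passed with quantile normalization at 0.31. Both knockdowns are read against the same siCtrl arrays, so shared calls do not count as repeats. PSMC6 fell by -0.93 ± 0.12 with siRelA (adjusted p = 1.74e-05, limma, 2 of 2 pairs) and by -0.51 ± 0.12 with siRelB. From the values given above, the siCtrl array was highest, siRelB next and siRelA lowest in both EBSS and mock, and siRelB lay above siRelA by 0.42 ± 0.12 (adjusted p = 0.0266). The dimmer PSMC6 probes gave -0.79 and -0.49.

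PSMA2 fell with siRelA (-0.66 ± 0.13) and siRelB (-0.74 ± 0.13), PSMA3 by -0.76 ± 0.15 and -0.53 ± 0.15, and PSMD6 by -0.42 ± 0.11 and -0.45 ± 0.11. PSMB7, the trypsin-like catalytic subunit, was at 11.64 with siCtrl, 11.19 with siRelA and 11.35 with siRelB in EBSS, and at 11.56, 11.23 and 11.33 in mock. Both knockdowns lay below siCtrl in both media, by -0.39 ± 0.08 and -0.25 ± 0.08. PSMA6 (-0.49 ± 0.10), PSMA4 (-0.33 ± 0.10) and PSMB3 (-0.30 ± 0.09) passed with siRelA, and PSMD12 (-0.49 ± 0.13), PSMC2 (-0.37 ± 0.10) and PSMC1 (-0.35 ± 0.10) with siRelB. PSMA6 stood at 11.15, 10.66 and 11.10 in mock and at 11.18, 10.69 and 10.89 in EBSS (siCtrl, siRelA, siRelB), with the siRelA array lowest in both media. PSMB3 stood at 12.05, 11.54 and 12.02 in mock and at 12.00, 11.90 and 12.01 in EBSS. PSMC3 rose with siRelA by 0.43 ± 0.11 and was at 0.30 ± 0.11 with siRelB. It stood at 9.87, 10.27 and 10.16 in mock and at 9.74, 10.20 and 10.04 in EBSS (siCtrl, siRelA, siRelB), with siCtrl lowest in both media. Directly compared, siRelB against siRelA gave 7 of 43 members (16.3%), 4 higher and 3 lower, beside 5.46% of all tested genes that were higher, 4.61% lower and 10.1% in either direction: PSMB9 (0.63), PSMC6 (0.42), PSMA6 (0.32) and PSMB3 (0.29) higher with siRelB, and PSMD12 (-0.47), PSMA7 (-0.41) and PSMD1 (-0.37) lower. PSMA7, an alpha subunit, stood at 9.79, 10.16 and 9.53 in mock and at 9.87, 9.81 and 9.61 in EBSS (siCtrl, siRelA, siRelB).

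**Figure D4:**
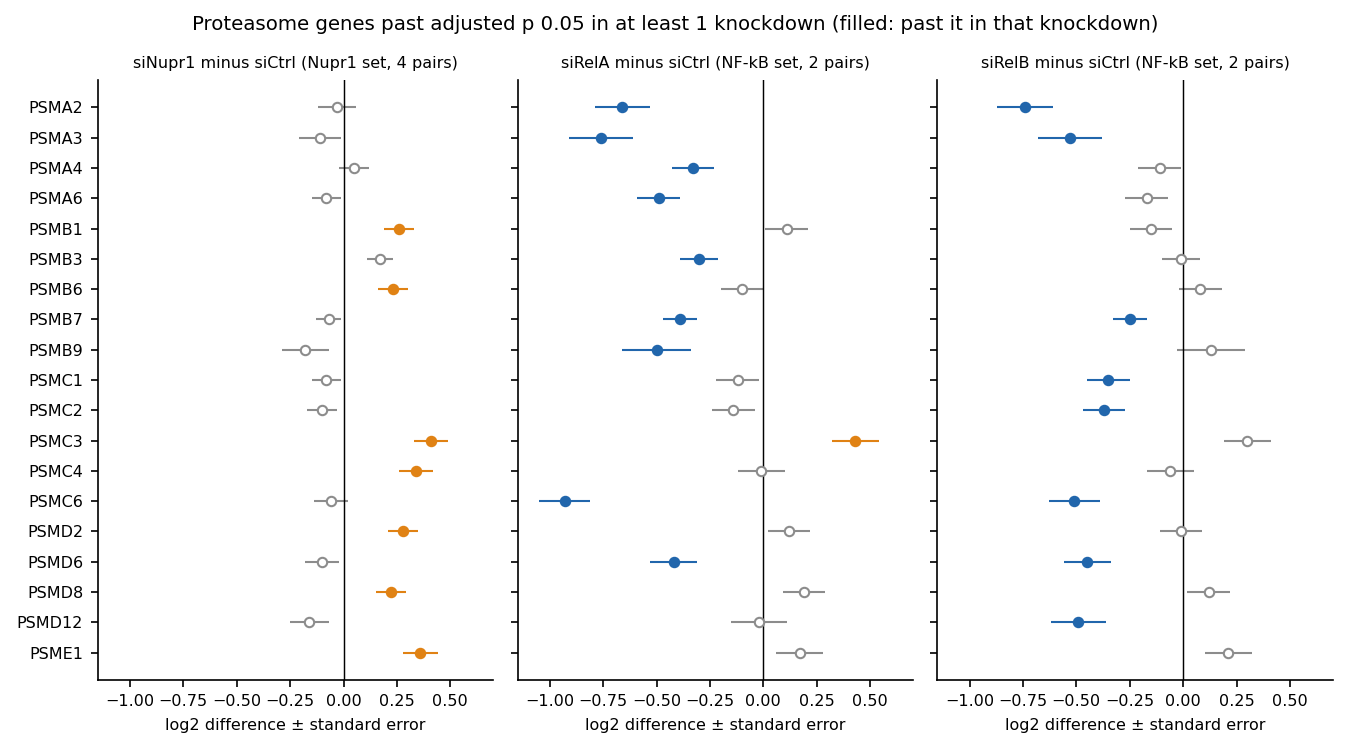
Log2 difference with its standard error (x axes) of the proteasome genes that passed an adjusted p of 0.05 in at least 1 knockdown (y axis), for siNupr1, siRelA and siRelB minus siCtrl. Filled points passed in that panel: 7 rose with siNupr1, 9 fell and 1 rose with siRelA, and 8 fell with siRelB; siRelA and siRelB share their siCtrl arrays.

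Few arrays carry the NF-kB knockdowns. Each difference rests on the arrays of the siRNAs it compares. Leaving out another array leaves the difference as it was and changes only its error and p-value. The siRelA count went to 5 without the siCtrl array in EBSS, the siCtrl array in mock or the siRelA array in mock, with PSMA2, PSMA3, PSMA6 and PSMC6 called in all 14 fits. The siRelB count went to 1 without the siCtrl or the siRelB array in EBSS, to 5 without the siCtrl array in mock and to 4 without the siRelB array in mock, and PSMA2 was the 1 member called in all 14. For siRelB against siRelA it went to 0 without either mock array of these siRNAs and to 2 without the siRelB array in EBSS.

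PSMB9, which replaces PSMB6 in the immunoproteasome, stood at 8.36 with siCtrl, 8.09 with siRelA and 8.33 with siRelB in EBSS, and at 8.45, 7.72 and 8.75 in mock. The siRelA array was lowest in both media and farthest from the others in mock. Its difference with siRelA was -0.50 ± 0.16 (adjusted p = 0.0283, limma, 2 of 2 pairs), with -0.27 in EBSS and -0.73 in mock, and the call was lost without the siCtrl array in EBSS, the siCtrl array in mock or the siRelA array in mock (adjusted p up to 0.607). With siRelB it was at 0.13 ± 0.16. PSMB8 (-0.24 ± 0.19) and PSMB10 (-0.14 ± 0.13) did not pass with siRelA. TAP1, a peptide transporter, feeds proteasome products to MHC class I, and its gene lies head to head with PSMB9. TAP1 fell with siRelA by -1.18 ± 0.14 (adjusted p = 6.71e-06, limma). It was the 1 gene called with siRelA of the 6 tested interferon and MHC class I genes (16.7%). Of all tested genes 11.4% fell. The median of the 6 was -0.08 and the highest 0.21. The stretch between the 2 starts that holds a match to an NF-kB element (GGGA, any base, TT, any base, CC, on either strand) is shown with the match in capitals, on the strand of TAP1 at chr6:32853742-32853801 (minus strand, RefSeq, GRCh38.p14).
TAP1 side: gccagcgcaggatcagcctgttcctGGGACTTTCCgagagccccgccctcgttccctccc
The element begins 72 bases before the TAP1 start and its end on that side of PSMB9 lies 416 bases before the PSMB9 start. Such a match was in 1.29% of the 22199 windows of protein-coding genes and in a window of 1.72% of genes. It was in a window of 0 of the 39 members, PSMB9 included. It is a match of letters and says nothing on binding in these cells.

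**Figure D5:**
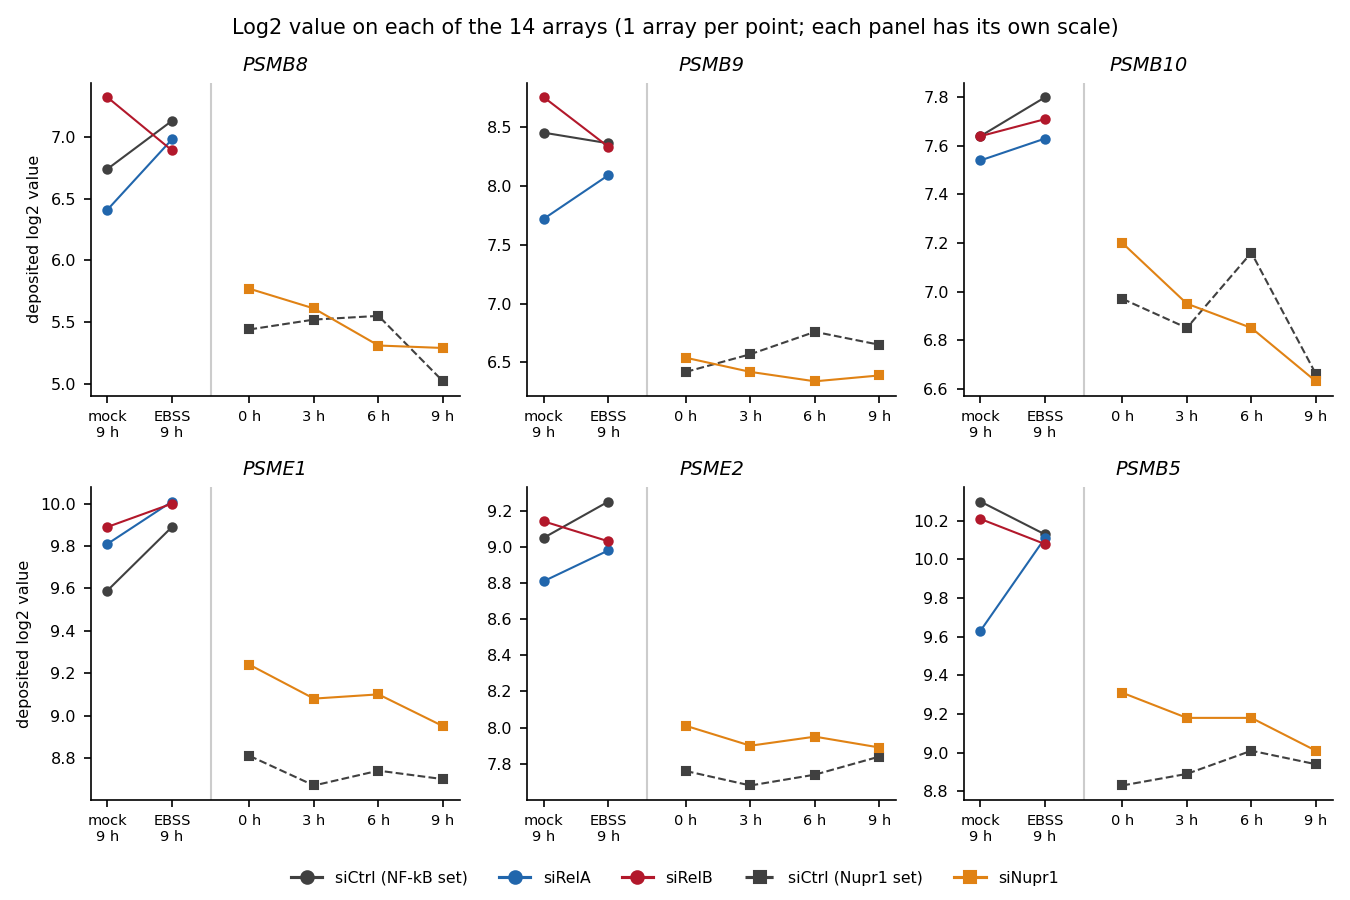
Deposited log2 value (y axis, its own scale in each panel) of the immunoproteasome subunits PSMB8, PSMB9 and PSMB10, the inducible cap genes PSME1 and PSME2 and the standard subunit PSMB5 on each of the 14 arrays (x axis: mock and EBSS at 9 h for the NF-kB set, then 0, 3, 6 and 9 h for the Nupr1 set). In each panel every array of the NF-kB set lies above every array of the Nupr1 set. This also held for other members not shown here (PSMA5, PSMA6, PSMB2, PSMB3, PSMB6, PSMD4 and PSMD9). Its share over all tested genes was not counted. For PSMB9 the siRelA array in mock, at 7.72, is the lowest of its set.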

How the data were processed

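Affymetrix whole-transcript arrays of 14 RNA samples were used. Values were log2 expression per transcript cluster as deposited, made by the authors with RMA per the submitters' processing notes; its version and the annotation release are unstated there. The 28869 clusters had no missing value; 19310 carried a single symbol, and the brightest per gene gave 18377 genes. The 40% dimmest by mean (under 5.805) were not tested. One additive limma model (version 3.58.1, R 4.3.3; 9 columns, 5 residual degrees of freedom, eBayes with trend) over all 14 arrays gave 9 comparisons, a difference between sets and a linear slope on hours, with Benjamini-Hochberg adjustment over 11026 genes and a threshold of 0.05. The model was also run on simulated data with independent noise and additive effects. Such data cannot show how the model handles a medium effect that depends on the siRNA. With 1 array per combination, the spread is what the additive model leaves, and a medium effect that depends on the siRNA counts as spread. Members and gene lists were chosen with earlier results of these data known. Values on every array were given for the called members with the largest starvation changes (up to 3 per role), for catalytic and immunoproteasome subunits and for members called with an siRNA; of other lists up to 3 called genes per starvation comparison were named. Promoter windows came from RefSeq (GRCh38.p14). Alternatives were quantile normalization, no filter, array weights, each set alone, the mean of a gene's clusters, removal of a trend on genomic span and leaving out each array.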

Additional observations from a re-analysis of the deposited data

Results flagged for a closer look

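For 7 of 43 proteasome genes (16.3%) the starvation response differed between the 2 sets, beside 24.5% of all tested genes. The difference itself was tested, as 9 h against 0 h in the Nupr1 set minus EBSS against mock in the NF-kB set. The threshold was a limma adjusted p under 0.05. The difference was 0.97 for PSME4 and 0.68 for PSMD12. It was -0.55 for PSMB10, -0.53 for PSMG3, -0.41 for PSMD8, -0.40 for PSME1 and -0.33 for PSMB4. These 5 calls were lost with array weights and with the span trend removed, and those of PSME4 and PSMD12 were kept. The sets differ in their reference condition, which cannot be told apart from any other difference between them.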

How the results depend on the processing

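No member value that passed reversed its sign under any alternative. Of 1733 recomputed values, 1430 kept their direction and their side of the threshold and 303 kept their direction only. Many of these values could not reverse. Leaving out an array that a comparison does not use leaves its difference as it was, as do fits without the filter or of each set alone. With array weights the count of members at 9 h against 0 h went from 12 to 3. The share of all tested genes called there went from 24.3% to 13.8%. For siNupr1 the count went from 7 to 12 (11 rose and 1, PSMD12, fell), and the share from 18.4% to 29.7%. For the difference between the sets the count went from 7 to 2, and the share from 24.5% to 16.8%. At 9 h against 3 h the share went from 7.34% to 3.75%, and the count of members from 1 to 0. The last count was also 0 without the filter, with each set fitted alone and with the span trend removed; with quantile normalization it was 1, but PSMG3 (-0.45) in place of PSME4. The slope on hours gave 1 member, PSMA3, in place of 0 with the Nupr1 set alone, where 7.63% of all tested genes passed in place of 0. The cause of these shifts was not tested. The share of all tested genes called moved as well when 1 array was left out. Leaving out 1 array gave 13 to 16 members for EBSS against mock, 1 to 8 at 3 h, 5 to 13 at 6 h, 3 to 12 at 9 h, 0 to 2 at 9 h against 3 h, 3 to 9 for siNupr1, 5 to 11 for siRelA, 1 to 9 for siRelB, 0 to 8 for siRelB against siRelA, 2 to 11 between the sets and 0 to 1 for the slope. The model itself compares arrays of the same siRNA, medium or time, the pairs counted above; pairing by replicate number could not be added, since each combination has 1 array. The number of arrays limits the precision of every comparison.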

Other observations

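The 2 sets stood at different levels in the same labelled condition, siCtrl after 9 h in EBSS. PSMB8 was at 7.13 in the NF-kB set and at 5.02 in the Nupr1 set, and PSMB9 at 8.36 and 6.65. At least 2-fold higher in the NF-kB set were 9 of 43 members (20.9%) and 1.31% of all tested genes, and at least 2-fold lower were 0 members and 7.95% of all tested genes. Each set is 1 array in that condition, so no test was made, and the sets cannot be told apart from other differences between them.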
